A study of Mus musculus with 20 samples.

Results

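Fatty acid oxidation genes were followed in the livers of adult male mice whose mothers had been kept at different temperatures during gestation. The group comprised 39 genes chosen by name for their role in mitochondrial or peroxisomal fatty acid breakdown, from uptake and activation to the products, together with the nuclear receptor gene Ppara. Of these, 37 had a row on the array, 1 row each among 22206 transcript rows, and 19 of the 37 were assigned to mitochondria, 10 to peroxisomes, 5 to both, 2 to the cytosol and 1 to the nucleus. The expression of Acsl1 and Etfb was not analysed here, and both entered only the promoter search.

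The 20 mice were C57BL/6NCr males, an inbred strain, aged 4 to 5 months, with 1 liver array per mouse. They formed 4 groups of 5 by the temperature of the dam, 10, 18, 23 or 30 °C, where 23 °C is standard housing and serves as the control. Dams of the 10 and 18 °C groups were acclimated for 2 weeks and those of the 30 °C group for 3 weeks before mating. The sires of these groups were exposed for 3 days. The labels give neither for the 23 °C group, so acclimation and sire exposure cannot be told apart from the dam's temperature in gestation. All litters lived at 23 °C from birth on standard chow. The labels name neither litter, dam, time of day nor feeding state, so p-values measure the spread between these arrays. The groups are called 10 °C, 18 °C, 23 °C and 30 °C offspring below.

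Fatty acids enter beta-oxidation after activation to acyl-CoA esters, and long chains cross the inner mitochondrial membrane through the carnitine shuttle. Mitochondria carry most of the flux in liver and deliver acetyl-CoA for ketone bodies, while peroxisomes shorten very long, branched and bile acid side chains. PPARA, a nuclear receptor that binds fatty acids, is the best known inducer of these genes in fasting liver, and it binds as a dimer with RXR to a direct repeat of a short half-site with 1 base between the copies, called DR1.

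Promoter letters were searched for that repeat, since it is the element through which many of these genes are known to respond together. The RefSeq table of GRCm38.p6 held a window from 250 bases before to 50 bases after the start for 34 of the 39 genes. Acsl1 and Etfb are among these 34 and count as members in this search. The motif AGGTCANAGGTCA was searched on both strands. No window of a member held it without mismatch, against 0.0396% of all 32851 windows. With at most 1 mismatch it was found for Fabp1 and Acot12, and with at most 2 also for Echs1, Etfa, Slc25a20 and Acox2. This makes 6 of 38 member windows (15.8%) against 3.86% of all windows. Many genes of this group are known PPARA targets, so the list is not independent of the motif, and a match is a run of letters and not a shown binding site. The 250 bases before the start are shown for the pair of genes with the closest matches, and the match with its neighbouring bases for the other 4. Capitals mark the match, and each line reads 5′ to 3′ on the gene's strand. The matches of Fabp1, Acot12 and Etfa are on the opposite strand. Coordinates are chr6:71199629-71199878 for Fabp1 and chr13:91741271-91741520 for Acot12, both on the plus strand. They are chr7:140116484-140116512 for Echs1, chr9:55512300-55512328 for Etfa and chr14:8258810-8258838 for Acox2, all on the minus strand, and chr9:108662134-108662162 for Slc25a20 on the plus strand.
Fabp1: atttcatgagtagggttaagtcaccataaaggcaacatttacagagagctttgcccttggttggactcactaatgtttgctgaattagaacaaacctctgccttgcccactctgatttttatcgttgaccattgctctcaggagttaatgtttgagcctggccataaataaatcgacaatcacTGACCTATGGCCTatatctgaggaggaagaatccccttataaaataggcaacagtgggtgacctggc
Acot12: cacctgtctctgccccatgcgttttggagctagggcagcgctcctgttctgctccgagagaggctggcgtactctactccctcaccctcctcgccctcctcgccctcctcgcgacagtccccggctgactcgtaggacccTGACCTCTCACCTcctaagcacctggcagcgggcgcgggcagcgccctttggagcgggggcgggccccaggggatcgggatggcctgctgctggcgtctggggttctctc
Echs1: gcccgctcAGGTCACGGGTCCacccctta
Etfa: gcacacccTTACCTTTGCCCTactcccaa
Slc25a20: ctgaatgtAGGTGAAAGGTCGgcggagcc
Acox2: gctgtcccAGGACAGAGGTGAgtcaagag

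Counted from the start of the gene, the matches lie at -67 to -55 in Fabp1, -110 to -98 in Acot12, -83 to -71 in Echs1 and -77 to -65 in Etfa. Those of Slc25a20, at 7 to 19, and Acox2, at 10 to 22, lie after the start.

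All values are log2 expression as the authors normalised it, so a difference of 1 is a doubling, and they are compared between arrays for the same gene only. Array medians lay between 4.39 and 4.46, and any pair of arrays correlated at 0.987 to 0.993 over the transcript rows. The tissue label fitted its markers, with all 8 hepatocyte markers above the 95th percentile of the negative control rows in all 20 arrays. Of the members, Acot8 (mean 5.71) never exceeded that percentile, which lay between 7.55 and 8.24, and Crat exceeded it in 19 arrays. The other 35 exceeded it in all 20. In a whole-liver sample, fewer cells of a type and less RNA per cell cannot be told apart.

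Animal 6 of the 10 °C offspring stood apart and bears on the results that follow. It had the highest value of all 20 arrays in 17 of the 37 members (45.9%), against 6.75% of all rows and 10.2% of the brighter rows. Its median over members lay 0.38 above the mean of the 20 arrays, while the other 4 mice of its group had medians between -0.09 and 0.06. Its list level of 17 other PPARA targets was 1.12, against -0.51 to 0.07 in the other 10 °C mice. Its level of 11 genes of fatty acid and triglyceride synthesis and glycolysis that are high in the fed state, called the lipogenic score, was -1.72, the lowest of all arrays. At the other end, animal 17 of the 23 °C offspring had the lowest value in 9 members (24.3%), against 5.69% of all rows. Many counts for 10 °C offspring, and many member values that move by over 1.5 times on leaving out animal 6, are therefore also given without it. Those printed alone rest on all 20 arrays and can also depend on this mouse.

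**Figure D1:**
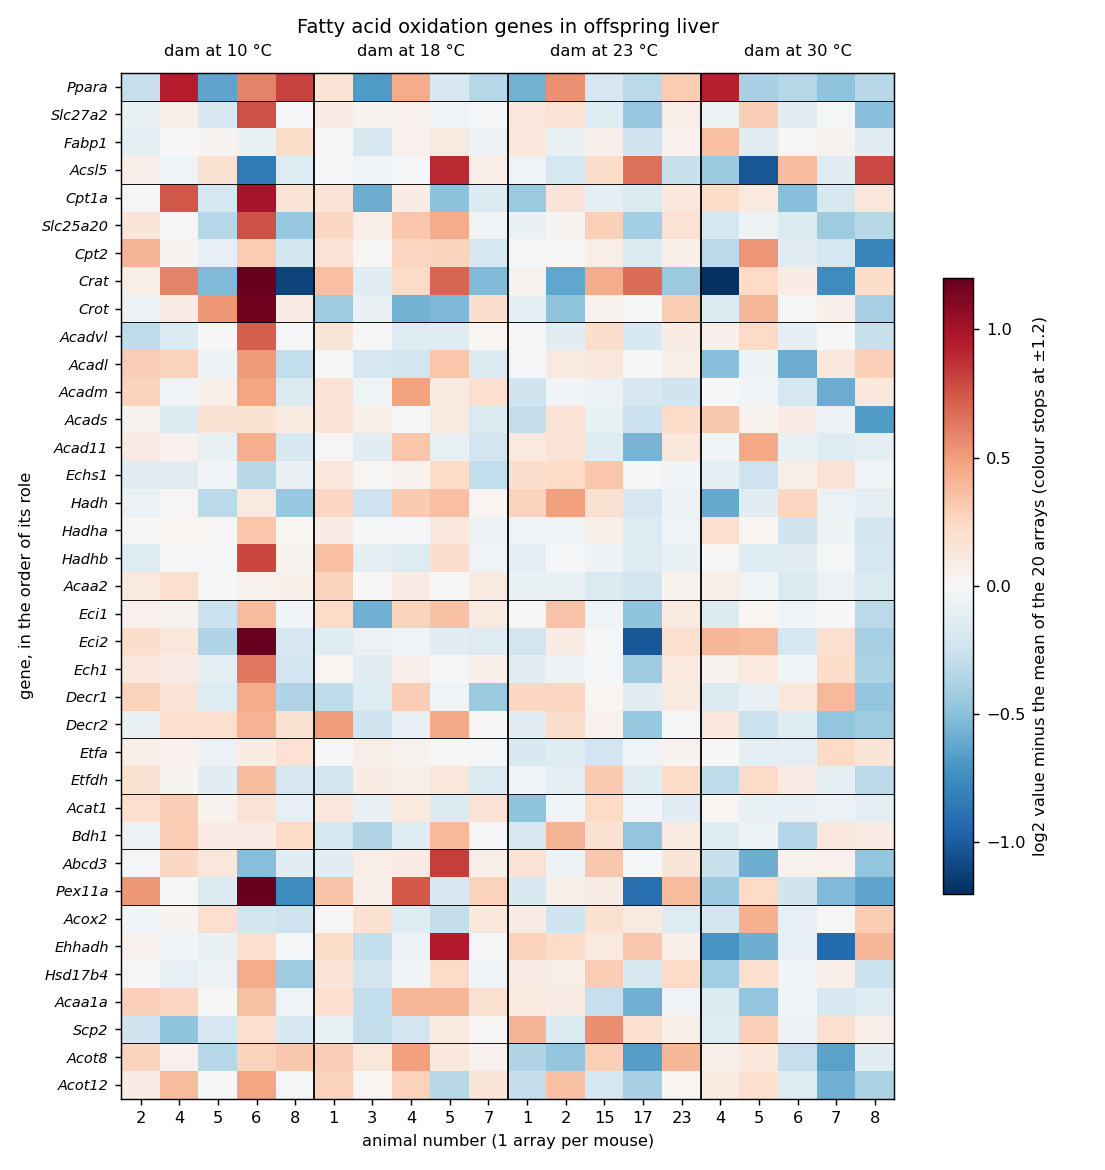
Log2 value minus each gene's mean over the 20 arrays, for the 37 members (down, by role) and the 20 mice (across, by temperature of the dam and animal number), red above and blue below the mean. Animal 6 of the 10 °C offspring is the highest in 17 genes, and animal 17 of the 23 °C offspring is the lowest in 9.

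No member passed the test between any 2 groups. In 10 °C against 23 °C offspring, 0 of 37 passed (limma adjusted p under 0.05), against 2 of the 22206 rows (0.00901%). Differences lay above 0 in 28 of 37 members, against 50.4% of all rows, with a median of 0.12 against 0.0024 over all rows. Members at an unadjusted p under 0.05 were 2 (5.41%), against 11.6% of all rows, and both were lower, against 5.91% of rows in that direction. All 37 intervals of the difference (95%, unadjusted) lay within 1 log2 unit of 0, and 17 lay within 0.5. Without animal 6, 21 of 37 differences were above 0 and the median was 0.036. Without animal 17 of the 23 °C offspring the median was 0.06.

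Differences between group means were of the size of the spread among mice. Over the 4 groups, the within-group SD ran from 0.0985 (Acaa2) to 0.742 (Crat) with a median of 0.258, and in 17 of 37 members the span between the highest and lowest group mean was smaller than that SD. The 10 °C offspring had the highest mean in 19 members and the 30 °C offspring the lowest in 19. Without animal 6 the 10 °C offspring had the highest mean in 9 and the 30 °C offspring the lowest in 19. The matching shares over all rows were not counted. The moderated F-test over 4 groups called 0 members (smallest limma adjusted p = 0.482, Acaa1a), with 1 at an unadjusted p under 0.05 against 9.86% of rows. The slope on the dam's temperature was below 0 in 31 of 37, with a median of -0.09 per 10 °C against -0.0029 over all rows. It called 0 members (smallest limma adjusted p = 0.5, Decr2 and Acaa1a) and had 4 at an unadjusted p under 0.05, all negative (Decr2, Acaa1a, Acot12 and Acadm), against 4.3% of rows. The slope was below 0 in 28 of 37, with a median of -0.052, when animal 6 was left out. The share of all rows with a slope below 0 was not counted.

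**Figure D2:**
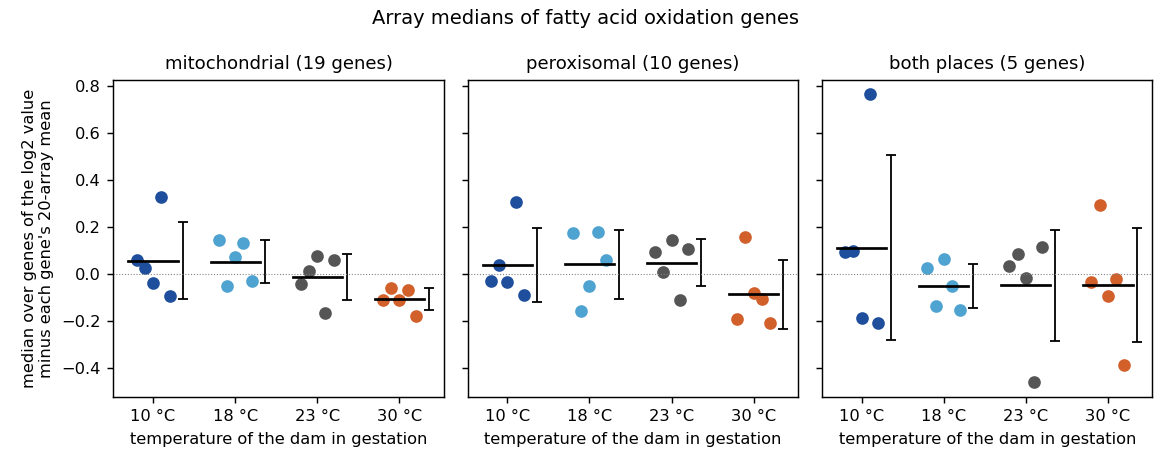
Median over genes of the log2 value minus each gene's mean over 20 arrays, for 19 mitochondrial, 10 peroxisomal and 5 dual-location members, 1 point per mouse by temperature of the dam. Lines are group means and bars the SD (n = 5); mitochondrial medians of the 30 °C offspring lie between -0.18 and -0.06, and animal 6 is the highest 10 °C point in each panel.

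By place, the mitochondrial members had array medians of 0.06 ± 0.16 in 10 °C, 0.05 ± 0.09 in 18 °C, -0.01 ± 0.10 in 23 °C and -0.10 ± 0.05 in 30 °C offspring (SD, n = 5). All 5 mice of the 30 °C group were below the 20-array mean, with values between -0.18 and -0.06, and they lay below all 18 °C mice and overlapped with the 10 °C and 23 °C groups. Without animal 6 the 10 °C means were -0.0089 ± 0.069 for mitochondrial and -0.027 ± 0.052 for peroxisomal members (SD, n = 4). The peroxisomal members had 0.04 ± 0.16, 0.04 ± 0.15, 0.05 ± 0.10 and -0.08 ± 0.15 in the same order. The 30 °C offspring had the lowest group mean in 7 of 10 peroxisomal and 8 of 19 mitochondrial members.

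Ppara, the receptor gene itself, varied among mice of each group. Values are listed in the order of the animal numbers, which are 2, 4, 5, 6 and 8 in the 10 °C, 1, 3, 4, 5 and 7 in the 18 °C, 1, 2, 15, 17 and 23 in the 23 °C, and 4 to 8 in the 30 °C offspring. Its log2 values were 12.74, 13.95, 12.37, 13.61 and 13.82 in 10 °C, 13.17, 12.33, 13.45, 12.82 and 12.67 in 18 °C, 12.44, 13.56, 12.80, 12.69 and 13.31 in 23 °C, and 13.94, 12.62, 12.66, 12.53 and 12.68 in 30 °C offspring. High and low mice occurred in each group, and all groups overlapped. The differences from 23 °C offspring were 0.34 ± 0.31 for 10 °C, -0.07 ± 0.31 for 18 °C and -0.08 ± 0.31 for 30 °C offspring (SE, limma adjusted p = 0.719, 0.968 and 1). None of these directions held under all alternatives. The 10 °C difference was 0.26 without animal 6, -0.13 with background control rows as a covariate and -0.032 with the replicate block. The 18 °C and 30 °C differences turned above 0 on leaving out single arrays, to at most 0.079 and 0.074 without animal 2 of the 23 °C offspring.

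The Ppara values followed the clock genes of the same mouse. A clock score, the mean level of 9 evening clock genes, such as Dbp and Per2, minus that of 5 morning clock genes, such as Arntl, ran from -2.64 to 2.68 over the 20 arrays. With the group means in the model, Ppara rose by 0.28 ± 0.05 log2 units per unit of score (SE, limma adjusted p = 0.00828 over all rows). The score called 0.221% of rows in that direction, and Ppara was the only one of 37 members called in either direction. The call held when each array was left out in turn, in 20 of 20 fits, with a highest adjusted p of 0.0323. Without group means it did not pass (slope 0.23, limma adjusted p = 0.0724). Over 20 arrays Pearson's r was 0.657 (permutation p = 0.00262, Benjamini-Hochberg adjusted p = 0.00262 over 2 relations) and Spearman's rho was 0.520 (permutation p = 0.0199). Without the 2 arrays farthest from the median score, r was 0.615. This test was chosen after the data were seen. Ppara was picked because the fit had called it on the same 20 arrays. The permutation p-values, adjusted over 2 relations, take no account of the 37 members fitted and add no support to the call. Whether the mice were killed at different hours was not tested, as the labels give no hour. The group means of the score were -0.36 ± 1.45 in 10 °C, 0.60 ± 1.55 in 18 °C, -0.52 ± 1.97 in 23 °C and 0.28 ± 1.27 in 30 °C offspring (SD, n = 5).

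**Figure D3:**
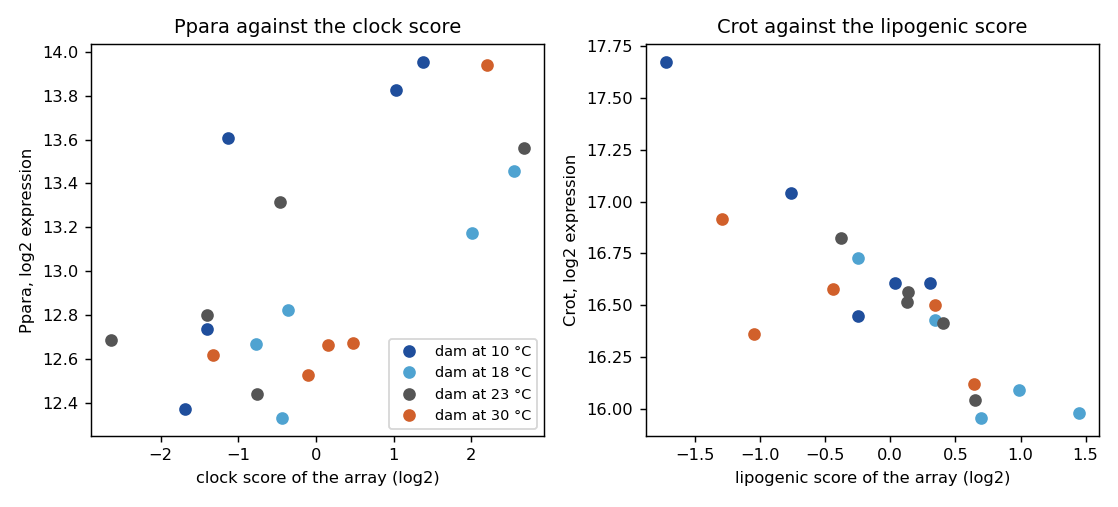
Left, Ppara against the clock score, and right, Crot against the lipogenic score, both in log2 units with 1 point per mouse coloured by the temperature of the dam. Ppara is higher at higher clock scores, and Crot is lower at higher lipogenic scores (r = 0.657 and -0.843, n = 20).

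Among the 3 uptake and activation genes, Slc27a2 encodes a very long chain acyl-CoA synthetase and transporter, Fabp1 the liver fatty acid binding protein, and Acsl5 a long-chain acyl-CoA synthetase. Fabp1 had the smallest span of group means of all members, 0.0459, with means between 17.47 and 17.51. Slc27a2 averaged 17.01 ± 0.38 in 10 °C, 16.92 ± 0.06 in 18 °C, 16.85 ± 0.26 in 23 °C and 16.82 ± 0.28 in 30 °C offspring (SD, n = 5). Animal 6 had 17.67 and the other 4 mice of the 10 °C group lay between 16.71 and 16.97; without it the difference from 23 °C offspring was -0.01, against 0.15 with it. Acsl5 averaged 15.02 ± 0.40, 15.36 ± 0.41, 15.25 ± 0.38 and 15.10 ± 0.71 in the same order. Its slope on the lipogenic score was 0.51 ± 0.12 (SE, limma adjusted p = 0.091), which did not pass.

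In the carnitine shuttle, all 5 genes had higher means in 10 °C than in 23 °C offspring, by 0.02 to 0.42, and none passed. Without animal 6 this held for 3 of 5, with Slc25a20 at -0.16 and Crat at -0.26. Cpt1a, the rate-limiting carnitine palmitoyltransferase of the outer mitochondrial membrane, had log2 values of 13.71, 14.48, 13.52, 14.72 and 13.90 in 10 °C offspring. It had 13.90, 13.15, 13.82, 13.24 and 13.57 in 18 °C, 13.29, 13.89, 13.61, 13.56 and 13.86 in 23 °C, and 13.95, 13.86, 13.22, 13.54 and 13.87 in 30 °C offspring. Animals 4 and 6 were well above all 23 °C mice, animal 8 was just above them, and the other 10 °C mice overlapped with them. The difference between 10 °C and 23 °C offspring was 0.42 ± 0.22 (limma adjusted p = 0.455), and 0.26 without animal 6. The difference between 10 °C and 18 °C offspring was 0.53 ± 0.22 (limma adjusted p = 0.555), and 0.37 without animal 6.

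Crot, the peroxisomal carnitine octanoyltransferase that exports shortened chains, had 16.45, 16.61, 17.04, 17.68 and 16.61 in 10 °C and 16.09, 16.43, 15.95, 15.98 and 16.73 in 18 °C offspring. It had 16.41, 16.04, 16.56, 16.51 and 16.82 in 23 °C and 16.36, 16.92, 16.50, 16.58 and 16.12 in 30 °C offspring. Animals 5 and 6 were above all 23 °C mice, and 4 of 5 mice of the 18 °C group were below all 10 °C mice. Crot had the largest span of group means, 0.64, between 10 °C and 18 °C offspring (limma adjusted p = 0.486), with 2 members at an unadjusted p under 0.05 in that comparison (Crot and Cpt1a) against 8.1% of rows. Without animal 6 that difference was 0.44, and the count of members above 0 between 10 °C and 18 °C offspring was 13 of 37, against 21 with it. Against 23 °C offspring the difference was 0.41 ± 0.22 in 10 °C (limma adjusted p = 0.473), and 0.21 without animal 6.

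Crot varied with the lipogenic genes of the same mouse. Its slope on the lipogenic score, was -0.44 ± 0.08 (SE, limma adjusted p = 0.0188), where 0.0675% of rows were called in that direction. Crot was the only member called. The call was lost without animal 6 (slope -0.37, limma adjusted p = 0.145), and also on leaving out animal 7 of the 18 °C group (limma adjusted p = 0.0551) or animals 5 and 8 of the 30 °C group, each in turn (0.0651 and 0.057). Pearson's r was -0.843 (permutation p = 2e-05, the smallest that the permutations can give, adjusted p = 4e-05), Spearman's rho was -0.815 (permutation p = 4e-05), and r was -0.744 without the 2 farthest arrays, of which animal 6 is 1. The mean lipogenic score was -0.48 ± 0.80 in 10 °C, 0.65 ± 0.64 in 18 °C, 0.19 ± 0.38 in 23 °C and -0.36 ± 0.84 in 30 °C offspring (SD, n = 5). The order of group means was 18 °C, 23 °C, 30 °C and 10 °C from high to low in the score and 10 °C, 30 °C, 23 °C and 18 °C in Crot. This test was also chosen after the data were seen. Like Ppara, Crot was picked because the fit had called it on the same arrays. Its permutation p-values take no account of the 37 members fitted and add no support to the call. The part of feeding was not tested.

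The other 3 shuttle genes gave smaller or more variable differences. Slc25a20, the carnitine-acylcarnitine carrier, averaged 12.18 ± 0.48, 12.37 ± 0.19, 12.16 ± 0.27 and 11.92 ± 0.14 in 10, 18, 23 and 30 °C offspring (SD, n = 5). The 5 mice of the 18 °C group lay above the 5 of the 30 °C group, with a difference of 0.45 ± 0.19 (limma adjusted p = 0.535) and 0.639% of rows not overlapping in that direction. Cpt2, the inner membrane transferase, differed by -0.18 to 0.11 from 23 °C offspring. Crat, which exchanges acetyl groups, was the most variable member, with 7.84 to 10.88 over all arrays.

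**Figure D4:**
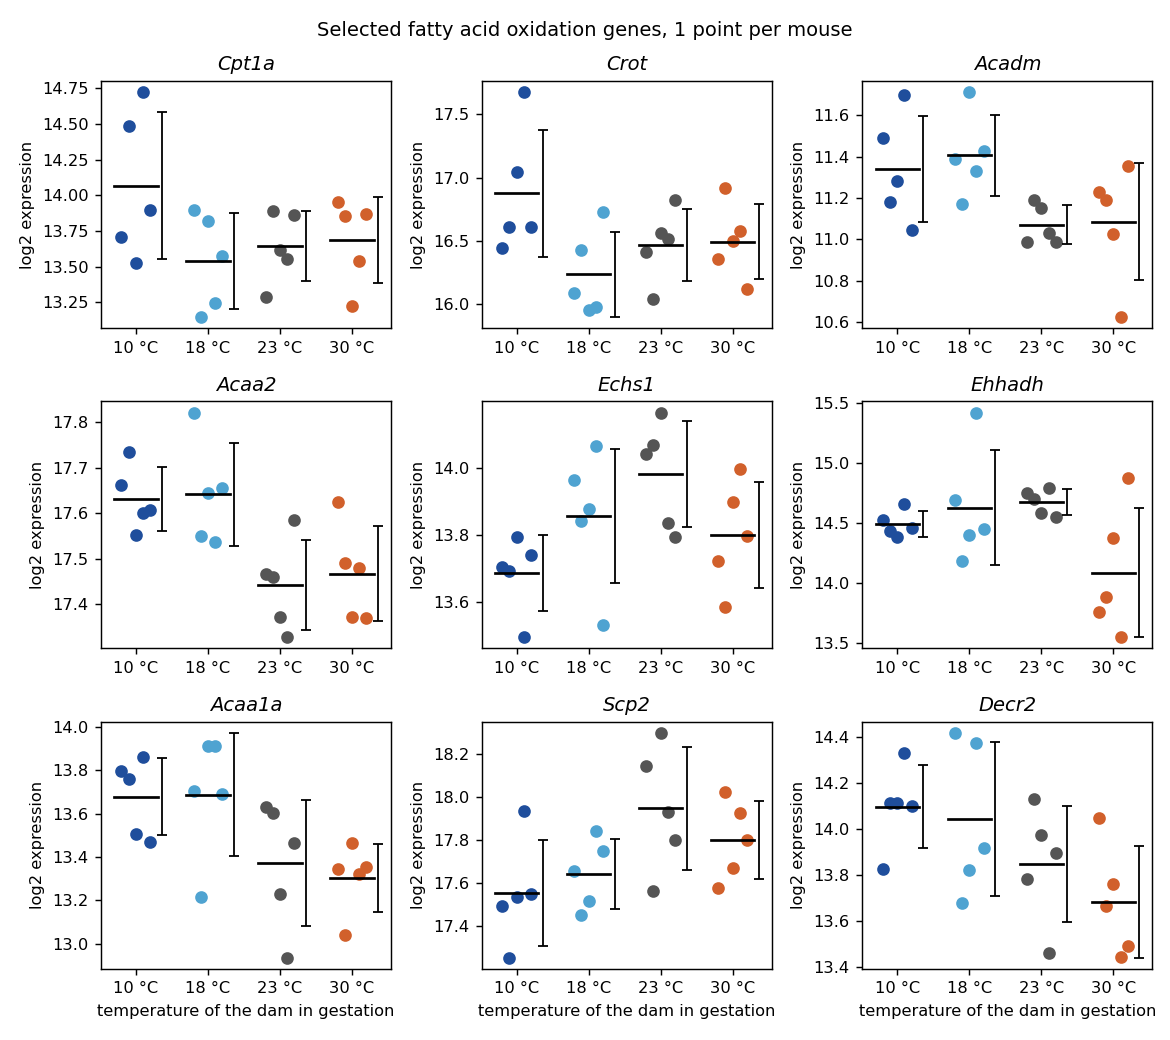
Log2 expression of 9 members, 1 point per mouse by temperature of the dam (horizontal axis), with group means as lines and SD as bars (n = 5). Echs1 of the 10 °C offspring lies below all 23 °C mice and Acaa1a of the 10 °C offspring above all 30 °C mice; no difference passed the adjusted threshold.

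In the mitochondrial cycle, the first dehydrogenases by chain length are Acadvl, Acadl, Acadm and Acads, and Acad11 is a long-chain relative. Acadm, the medium-chain enzyme, had 11.49, 11.18, 11.28, 11.70 and 11.05 in 10 °C offspring. It had 11.39, 11.17, 11.71, 11.33 and 11.43 in 18 °C, 10.99, 11.19, 11.15, 11.03 and 10.99 in 23 °C, and 11.23, 11.19, 11.03, 10.63 and 11.35 in 30 °C offspring. Of the 18 °C mice, 4 of 5 were above all 23 °C mice, and of the 10 °C mice 3 of 5 were, so the groups overlapped. The difference from 23 °C was 0.34 ± 0.15 in 18 °C offspring (unadjusted p = 0.036, limma adjusted p = 0.508) and 0.27 ± 0.15 in 10 °C offspring (limma adjusted p = 0.501). In 18 °C against 23 °C offspring, 0 of 37 members and 0% of rows passed, and Acadm was the only member at an unadjusted p under 0.05, against 9.25% of rows. The other 4 dehydrogenases differed from 23 °C offspring by -0.21 to 0.12 in the 3 groups. Without animal 6 the 10 °C differences were -0.11 for Acadvl, -0.0065 for Acadl, 0.08 for Acads and 0.02 for Acad11. With it they were 0.05, 0.09, 0.11 and 0.12.

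Echs1, the short-chain enoyl-CoA hydratase, was the member whose groups separated between 10 °C and 23 °C offspring. It had 13.71, 13.69, 13.79, 13.50 and 13.74 in 10 °C, 13.96, 13.84, 13.88, 14.06 and 13.53 in 18 °C, 14.04, 14.07, 14.16, 13.84 and 13.79 in 23 °C, and 13.72, 13.59, 13.90, 14.00 and 13.80 in 30 °C offspring. All 5 mice of the 10 °C group were below the lowest 23 °C mouse, with the closest mice of both groups at 13.79, and 1.4% of all rows were separated in that direction. The difference was -0.29 ± 0.13 (unadjusted p = 0.0299, limma adjusted p = 0.376), and it was -0.25 without animal 6. Hadh, the short-chain hydroxyacyl-CoA dehydrogenase, had 14.24, 14.33, 13.99, 14.44 and 13.86 in 10 °C, 14.57, 14.07, 14.63, 14.67 and 14.34 in 18 °C, 14.59, 14.80, 14.50, 14.11 and 14.25 in 23 °C, and 13.71, 14.18, 14.58, 14.25 and 14.20 in 30 °C offspring. Its groups overlapped, and 10 °C and 30 °C offspring were lower than 23 °C offspring by similar amounts, -0.28 ± 0.17 and -0.27 ± 0.17 (limma adjusted p = 0.550 and 0.978).

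Hadha and Hadhb, the alpha and beta subunits of the trifunctional protein, averaged 15.63 ± 0.14 and 13.52 ± 0.38 in 10 °C offspring against 15.51 ± 0.08 and 13.31 ± 0.05 in 23 °C offspring. In both, animal 6 was the highest 10 °C mouse, at 15.89 and 14.19, while the other 4 lay between 15.55 and 15.58 and between 13.24 and 13.43. With animal 6 left out, the differences from 23 °C offspring were 0.05 for both, against 0.12 for Hadha and 0.21 for Hadhb with it. Acaa2, the last thiolase of the cycle, had 17.66, 17.74, 17.55, 17.60 and 17.61 in 10 °C, 17.82, 17.55, 17.64, 17.54 and 17.66 in 18 °C, 17.47, 17.46, 17.37, 17.33 and 17.59 in 23 °C, and 17.62, 17.49, 17.37, 17.48 and 17.37 in 30 °C offspring. Of the 10 °C mice, 4 of 5 were above all 23 °C mice, and the difference was 0.19 ± 0.11 (limma adjusted p = 0.508). It was 0.20 ± 0.11 in 18 °C offspring (limma adjusted p = 0.593), and animal 6, at 17.60, was not the highest mouse of its group.

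The auxiliary enzymes handle double bonds, with isomerases Eci1, Eci2 and Ech1 and 2,4-dienoyl-CoA reductases Decr1 in mitochondria and Decr2 in peroxisomes. Decr2 had 13.82, 14.11, 14.11, 14.33 and 14.10 in 10 °C, 14.42, 13.68, 13.82, 14.38 and 13.92 in 18 °C, 13.78, 14.13, 13.97, 13.46 and 13.90 in 23 °C, and 14.05, 13.66, 13.76, 13.44 and 13.49 in 30 °C offspring. Of the 10 °C mice, 4 of 5 exceeded all 30 °C mice, and animal 2 lay among them. The difference between 10 °C and 30 °C offspring was 0.42 ± 0.17 (unadjusted p = 0.021, limma adjusted p = 0.691), and 0.36 without animal 6. Eci2 differed by 0.43 ± 0.26 between 10 °C and 23 °C offspring (limma adjusted p = 0.545), with animal 6 at 14.62 and the other 10 °C mice between 12.85 and 13.43, and 0.14 without that mouse. Eci1 and Ech1 differed from 23 °C offspring by -0.09 to 0.21, and Decr1 by -0.23 to -0.03. Without animal 6 the 10 °C differences were -0.03 for Eci1, 0.08 for Ech1 and -0.12 for Decr1. With it they were 0.05, 0.21 and -0.03.

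Electron transfer and ketogenesis were represented by 2 members each. Etfa, a subunit of the flavoprotein that takes electrons from the dehydrogenases, had 15.63, 15.61, 15.48, 15.64 and 15.73 in 10 °C, 15.55, 15.63, 15.60, 15.55 and 15.53 in 18 °C, 15.37, 15.41, 15.32, 15.51 and 15.60 in 23 °C, and 15.56, 15.43, 15.45, 15.79 and 15.70 in 30 °C offspring. The means of 10, 18 and 30 °C offspring lay above that of 23 °C offspring by 0.17, 0.13 and 0.15 with SE 0.11 each, and each group overlapped with it (limma adjusted p = 0.561, 0.769 and 0.978). Etfdh differed from 23 °C offspring by -0.13 to 0.0029, and its 10 °C difference, 0.0029, was -0.08 without animal 6. Acat1, the acetoacetyl-CoA thiolase, differed by 0.21 ± 0.13 and Bdh1, which reduces acetoacetate, by 0.13 ± 0.17 between 10 °C and 23 °C offspring (limma adjusted p = 0.562 and 0.819).

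The peroxisomal members did not move as a block. In 10 °C against 23 °C offspring 5 of 10 were higher and 5 lower, with a median of 0.10. In 30 °C against 23 °C offspring 8 of 10 were lower, with a median of -0.16, and in 10 °C against 30 °C offspring 8 of 10 were higher, with a median of 0.33. Without animal 6, 5 of 10 were higher in 10 °C against 23 °C offspring, with a median of -0.00025. In 10 °C against 30 °C offspring 7 of 10 were then higher, with a median of 0.23. For the 19 mitochondrial members the medians of 30 °C against 23 °C and of 10 °C against 30 °C offspring were -0.07 and 0.14, and the second was 0.075 without animal 6. Of these 19, 14 were lower in the first comparison, and 16 were higher in the second, with or without animal 6. Between 10 °C and 23 °C offspring 15 of 19 were higher, or 10 of 19 without animal 6. None of the 10 peroxisomal members passed. No test of the difference between the places was run, since genes are not replicates.

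Ehhadh, the peroxisomal bifunctional enzyme and a known PPARA target, had the largest difference from 23 °C offspring of any member. It had 14.52, 14.44, 14.39, 14.66 and 14.46 in 10 °C, 14.69, 14.18, 14.40, 15.42 and 14.45 in 18 °C, 14.75, 14.70, 14.58, 14.79 and 14.55 in 23 °C, and 13.76, 13.88, 14.38, 13.55 and 14.87 in 30 °C offspring. In the 30 °C group 4 of 5 mice were below all 23 °C mice and animal 8 was above them. The difference between 30 °C and 23 °C offspring was -0.59 ± 0.22 (unadjusted p = 0.0129, limma adjusted p = 0.978), with an interval from -1.04 to -0.14. In that comparison 0 of 37 members and 0% of rows passed, and Ehhadh was the only member at an unadjusted p under 0.05, against 4.84% of rows in either direction and 2.63% on the lower side. Of the 37 differences 26 were below 0, with a median of -0.07 against -0.0055 over all rows, and 48.7% of rows were above 0. The median was -0.14 without animal 17 of the 23 °C offspring, -0.031 without animal 8 of the 30 °C offspring, and -0.019 and -0.029 without animals 2 and 23 of the 23 °C offspring.

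Abcd3, the fatty acid transporter of the peroxisomal membrane, had 15.60, 15.88, 15.77, 15.12 and 15.49 in 10 °C, 15.50, 15.71, 15.73, 16.46 and 15.70 in 18 °C, 15.80, 15.57, 15.95, 15.61 and 15.77 in 23 °C, and 15.36, 15.05, 15.68, 15.68 and 15.16 in 30 °C offspring. The difference between 30 °C and 23 °C offspring was -0.36 ± 0.18 (limma adjusted p = 0.978), with 3 of 5 mice of the 30 °C group below all 23 °C mice. Pex11a, which promotes peroxisome division, averaged 11.09 ± 0.78 in 10 °C, 11.16 ± 0.34 in 18 °C, 10.80 ± 0.49 in 23 °C and 10.59 ± 0.35 in 30 °C offspring. Its difference between 10 °C and 30 °C offspring, 0.50 ± 0.29 (limma adjusted p = 0.790), was 0.22 without animal 6, which had 12.22. Acox2, a branched-chain and bile acid oxidase, and Hsd17b4, the D-bifunctional protein, differed from 23 °C offspring by -0.19 to 0.08 in all 3 groups. Without animal 6 the 10 °C differences were -0.26 for Hsd17b4, against -0.14 with it, and -0.0098 for Acox2, against -0.05.

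Acaa1a, a peroxisomal thiolase, had the smallest p of the members over the 4 groups. It had 13.80, 13.76, 13.51, 13.86 and 13.47 in 10 °C, 13.71, 13.22, 13.91, 13.91 and 13.69 in 18 °C, 13.63, 13.60, 13.23, 12.94 and 13.47 in 23 °C, and 13.34, 13.04, 13.46, 13.32 and 13.35 in 30 °C offspring. All 5 mice of the 10 °C group were above the highest 30 °C mouse, and 0.509% of rows were separated in that direction. The difference was 0.37 ± 0.16 (unadjusted p = 0.0264, limma adjusted p = 0.710), and 0.33 without animal 6. Against 23 °C offspring it was 0.30 ± 0.16 in 10 °C and 0.31 ± 0.16 in 18 °C offspring (limma adjusted p = 0.460 and 0.559).

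Scp2, which encodes sterol carrier protein and a peroxisomal thiolase, went the other way. It had 17.49, 17.25, 17.54, 17.93 and 17.55 in 10 °C, 17.65, 17.45, 17.52, 17.84 and 17.75 in 18 °C, 18.14, 17.56, 18.30, 17.93 and 17.80 in 23 °C, and 17.58, 18.02, 17.67, 17.92 and 17.80 in 30 °C offspring. Of the 10 °C mice, 4 of 5 were below all 23 °C mice, and animal 6 was the exception. The difference between 10 °C and 23 °C offspring was -0.39 ± 0.15 (unadjusted p = 0.0167, limma adjusted p = 0.314), the smallest adjusted p of any member against 23 °C, and -0.49 without animal 6. In 18 °C offspring it was -0.31 ± 0.15 (limma adjusted p = 0.557).

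The thioesterases release free acids from acyl-CoA esters. The peroxisomal Acot8 had 5.97, 5.75, 5.36, 5.97 and 6.03 in 10 °C, 6.00, 5.84, 6.20, 5.84 and 5.76 in 18 °C, 5.35, 5.24, 5.99, 5.04 and 6.11 in 23 °C, and 5.77, 5.83, 5.43, 5.07 and 5.57 in 30 °C offspring. These values lie within the spread of the negative control rows, and the groups overlapped, with 0.38 ± 0.20 between 18 °C and 23 °C offspring (limma adjusted p = 0.573). Acot12, a cytosolic acetyl-CoA hydrolase, had 12.68, 12.97, 12.59, 13.06 and 12.58 in 10 °C, 12.86, 12.62, 12.87, 12.26 and 12.74 in 18 °C, 12.31, 12.95, 12.38, 12.20 and 12.61 in 23 °C, and 12.70, 12.79, 12.43, 12.01 and 12.21 in 30 °C offspring. Its groups overlapped, with 0.35 ± 0.18 between 10 °C and 30 °C offspring (limma adjusted p = 0.758).

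**Figure D5:**
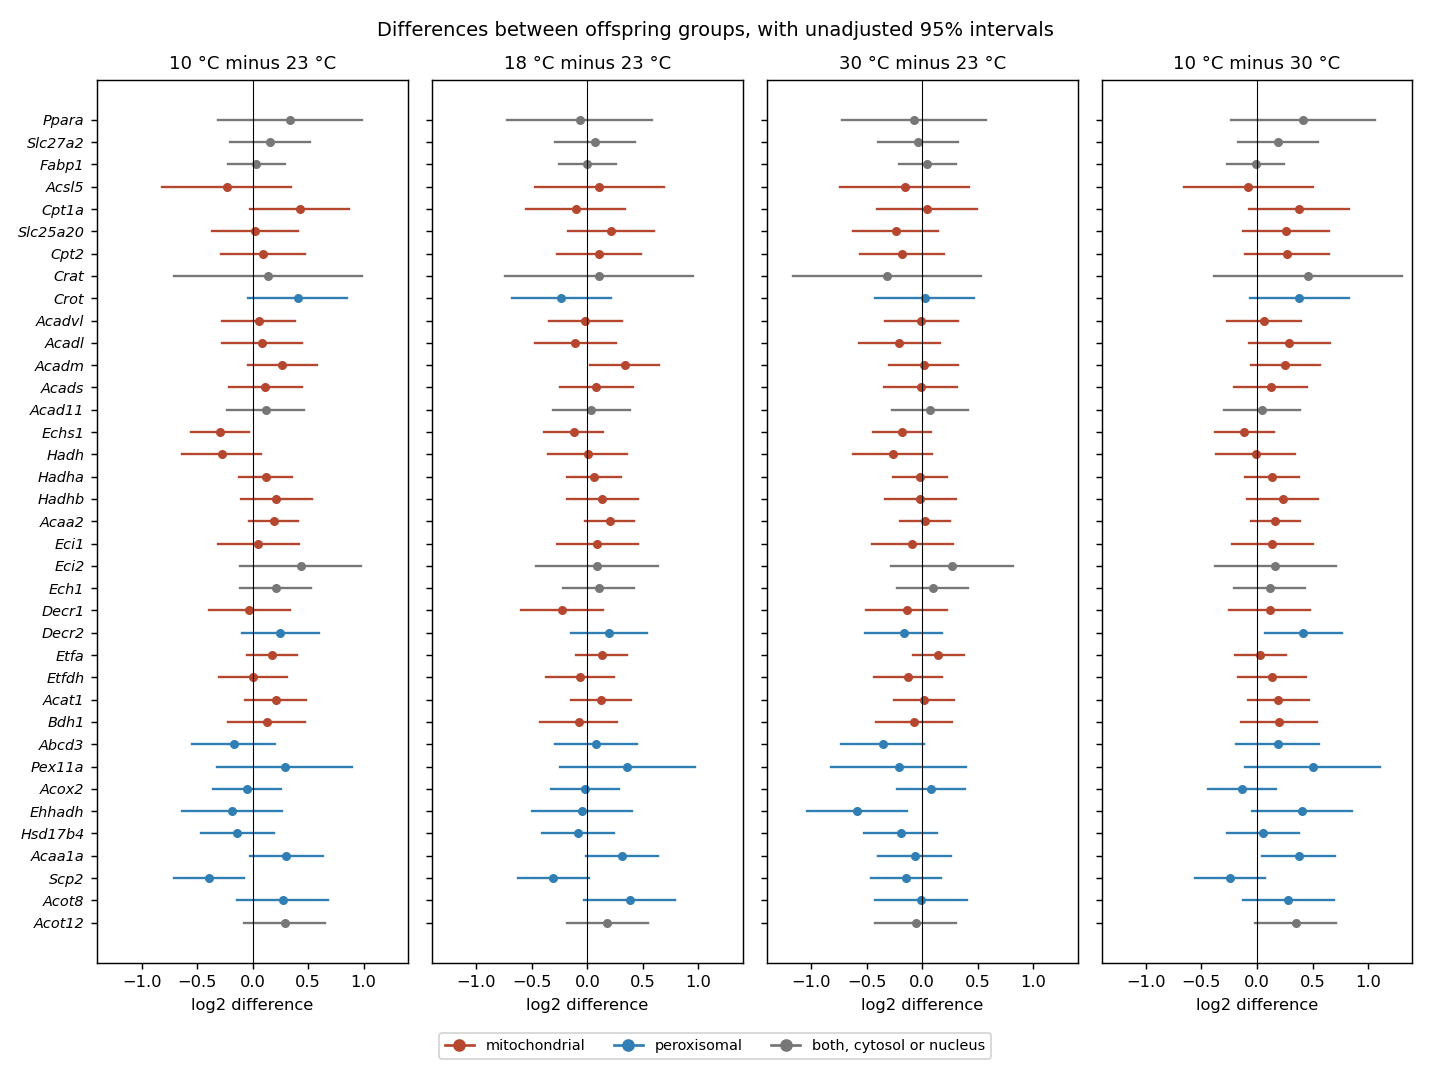
Log2 difference with its unadjusted 95% interval for the 37 members in 4 comparisons, each named as first group minus second, coloured by place. Of the 148 intervals, 143 lie within 1 log2 unit of 0; no member passed the adjusted threshold.

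The widest contrast of temperatures, 10 °C against 30 °C offspring, had 31 of 37 differences above 0, against 51.1% of rows. The median was 0.19, against 0.0058 over all rows. None of the 37 members and 0% of rows passed, and 2 members reached an unadjusted p under 0.05 (5.41%, Decr2 and Acaa1a), both higher, against 3.63% of rows in that direction. Without animal 6 the median was 0.075, with 28 of 37 above 0, and 0 members were higher and 1 lower at that level. Of the intervals 34 of 37 lay within 1 log2 unit of 0. In 18 °C against 23 °C offspring, 23 of 37 were above 0 (49.6% of rows) with a median of 0.08, which was 0.0066 without animal 17 of the 23 °C, 0.033 without animal 5 of the 18 °C and 0.047 without animal 1 of the 18 °C offspring. In 18 °C against 30 °C offspring, 26 of 37 were above 0 (50.6% of rows) with a median of 0.10, and 6 members reached an unadjusted p under 0.05, all higher, against 4.21% of rows (Ehhadh, Acaa1a, Slc25a20, Abcd3, Decr2 and Acadm, smallest limma adjusted p = 0.528). These comparisons share arrays, so their counts are not independent of each other.

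Averaging 10 °C with 18 °C offspring and 23 °C with 30 °C offspring gave 7 members higher and 1 lower at an unadjusted p under 0.05, against 11.5% of rows in either direction, and 0 members passed, against 0.0045% of rows. The smallest limma adjusted p was 0.245, for Acaa1a at 0.34 ± 0.11. The others were Acadm at 0.29, Decr2 at 0.30, Acaa2 at 0.18, Acot8 at 0.33, Acot12 at 0.26 and Pex11a at 0.43, with Scp2 lower at -0.28. Among them, Acot8 was above the negative control percentile in 0 arrays. Without animal 6 the counts were 5 and 1, and with background control rows as a covariate they were 4 and 0, against 6.43% of rows.

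Genes of the pathway outside the 37 members were counted in the same fits. Of 51 further fatty acid oxidation genes with a row, 0 passed in any comparison. In 10 °C against 23 °C offspring 25 were higher and 26 lower, or 28 and 23 without animal 6. In 10 °C against 30 °C offspring 30 were higher and 21 lower, or 26 and 25 without animal 6. The smallest p between 10 °C and 30 °C offspring belonged to Plin2, the lipid droplet coat protein, at 0.56 (limma adjusted p = 0.691), which was 0.37 without animal 6, and Acaa1b, the second peroxisomal thiolase, had 0.54 (limma adjusted p = 0.719). The peroxins, which build peroxisomes, had 8 of 12 differences above 0 in that contrast, or 9 without animal 6, and 0 passed. Of 10 genes of PPARA partners and coregulators, 6 were higher in the same contrast, or 5 without animal 6, and 0 passed. Of these, Sirt1 had the smallest p in 18 °C against 23 °C offspring, -0.65 ± 0.16 (limma adjusted p = 0.286). The 17 other PPARA targets had 13 differences above 0 in 10 °C against 30 °C offspring, with a median of 0.28, and 0 passed. Without animal 6 there were 10 above 0, with a median of 0.011. The largest were the fatty acid hydroxylases Cyp4a14, at 2.26 ± 0.82, and Cyp4a10, at 1.42 ± 0.46, and the pantetheinase Vnn1, at 1.36 ± 0.47 (limma adjusted p = 0.680, 0.662 and 0.677). Cyp4a14 had 1.65 and Cyp4a10 had 1.03 when animal 6 was left out. In 18 °C against 30 °C offspring, 15 of the 17 targets were above 0, against 50.6% of rows, with a median of 0.40. At an unadjusted p under 0.05, 6 were higher, against 4.21% of rows, and 1 was lower, against 4% of rows. None passed (smallest limma adjusted p = 0.352). Against 23 °C offspring, the 10 °C group had 4 of 12 peroxins, 2 of 10 partners and coregulators and 10 of 17 targets higher. Of all rows, 50.4% were higher in that comparison. Leaving out animal 6 gave 5, 2 and 6. The median of the targets there was 0.097, and -0.14 without animal 6. The list level of these targets was -0.51 to 1.12 in 10 °C, 0.0035 to 0.64 in 18 °C, -0.41 to 0.12 in 23 °C and -0.68 to 0.015 in 30 °C offspring.

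Some array measures differed between the same groups. Background control rows averaged 3.71 ± 0.02 in 10 °C, 3.71 ± 0.04 in 18 °C, 3.65 ± 0.02 in 23 °C and 3.66 ± 0.06 in 30 °C offspring (SD, n = 5). With that level as a covariate, 30 of 37 members were above 0 in 10 °C against 23 °C offspring with a median of 0.13, and 0 reached an unadjusted p under 0.05. The macrophage markers were higher in 6 of 7 rows in 10 °C against 23 °C offspring, also without animal 6, against 50.4% of all rows. Their list levels were -0.12 to 0.57 in 10 °C and -0.70 to 0.17 in 23 °C offspring. Of these 7, Adgre1 and Timd4 were above the negative control percentile in 0 arrays and Marco in 1. The stellate markers were higher in 7 of 8 rows, or 8 of 8 without animal 6. Among them, Colec11, Des, Col1a1 and Col3a1 were above that percentile in 0 arrays. The erythroid gene Alas2, the only row of its list, averaged 11.20 ± 0.18 in 10 °C and 11.82 ± 0.21 in 23 °C offspring (SD, n = 5), with all 5 mice of the 10 °C group below all 23 °C mice. Of all rows, 1.4% were separated in that direction. The Alas2 difference was -0.62 ± 0.16 (SE, limma adjusted p = 0.165). The part of these cell types in the members' values was not tested. The 8 hepatocyte markers differed by a median of -0.03.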

How the data were processed

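Liver RNA of 20 mice was measured on Affymetrix arrays. The deposited table holds log2 expression values, which the authors made with RMA and the Transcriptome Analysis Console, per the submitters' processing notes; versions and genome build are not given in the sources used here. RMA fits background and quantiles, so a shift common to all genes would not be seen. No depth applies to arrays, and their number limits the precision.

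Groups came from the labels. Each of 22206 transcript rows was fitted in R 4.3.3 with limma 3.58.1 (lmFit and eBayes, 1 mean per group, 20 arrays), and p-values, two-sided, were adjusted over all rows by the Benjamini-Hochberg method at 0.05. Errors are limma's standard errors unless given as SD. The 10 °C with 18 °C average was also set against the 23 °C with 30 °C average in this fit. The fit was checked on simulated data. Members are the rows with the highest mean per symbol, named from the platform annotation. Values of every array are given for Ppara, Cpt1a and the 5 members with the smallest p in each of 4 comparisons. The members, lists and score fits were chosen with earlier results of these data known. Alternatives were a trended robust variance, array weights, covariates, a replicate block, median centring, a brightness filter, fits of 2 groups, and leaving out each array. Promoter letters are RefSeq's (GRCm38.p6). Python 3.11.15, scipy 1.17.1 and matplotlib 3.10.9 served for permutations and plots.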

Additional observations from a re-analysis of the deposited data

Results flagged for a closer look

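In 8 of 148 gene-by-group sets of 5 mice, 1 mouse lay far from the other 4, by a gap of over 0.71 of the group's whole range. Chance gives about 1 such set in 20, so the count is near what chance gives. The sets are listed only as values to look at again. Animal 6 of the 10 °C offspring accounts for 3 of them. Its Hadha value of 15.89 stood above the others' 15.55 to 15.58 (gap 0.903 of the range), its Hadhb value of 14.19 above 13.24 to 13.43 (0.796), and its Slc27a2 value of 17.67 above 16.71 to 16.97 (0.725). Animal 5 of the 18 °C offspring was high in Acsl5, at 16.08 against 15.13 to 15.26 (0.864), and in Abcd3, at 16.46 against 15.50 to 15.73 (0.767), and its lipogenic score of 1.45 was the highest of the 20 arrays.

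Ppara in animal 4 of the 30 °C offspring was 13.94 against 12.53 to 12.68 in the other 4 (0.895), and that mouse had the highest clock score of its group, 2.20. Acad11, the acyl-CoA dehydrogenase relative, was 13.89 in animal 5 of the 30 °C offspring against 13.28 to 13.40 (0.805). Eci1, the mitochondrial isomerase, was 9.52 in animal 3 of the 18 °C offspring, below 10.20 to 10.44 in the others (0.734).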

How the results depend on the processing

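No member passed the adjusted threshold in any of the 4 comparisons under any of 28 alternatives (limma, smallest adjusted p = 0.176), so the limits concern medians and unadjusted counts. In 10 °C against 23 °C offspring the count at an unadjusted p under 0.05, 2, became 5 with a trended robust variance and 0 with background rows as a covariate or with the replicate block. In 18 °C against 23 °C offspring the count of 1 became 4 with the trended variance, 2 with array weights and 0 with background rows or the clock score as a covariate. In 30 °C against 23 °C offspring the count of 1 became 2 with the trended variance or only the 2 groups and 0 with the block. In 10 °C against 30 °C offspring the count of 2 became 5 with background rows and 6 with the clock score. Leaving out each array gave counts of 1 to 4, 0 to 3, 1 to 3 and 1 to 6 in these comparisons, and medians of 0.036 to 0.17, 0.0066 to 0.091, -0.14 to -0.019 and 0.075 to 0.22. The ends of the counts came without 10 °C animals 4 and 6 or 23 °C animal 15 (1) and 10 °C animals 2, 5 and 8 or 23 °C animals 2 and 23 (4) in the first comparison. They came without 18 °C animals 4 and 7 or 23 °C animal 17 (0) and 23 °C animal 2 (3) in the second, without 30 °C animal 6 (3) in the third, and without 10 °C animals 4 and 6 or 30 °C animal 7 (1) and 10 °C animal 8 (6) in the fourth. The sign of Ppara turned in 10 °C against 23 °C offspring, to -0.13 with background rows and -0.032 with the block. In 18 °C offspring it turned to 0.069, 0.079 and 0.017 without 18 °C animal 3, 23 °C animal 2 and 23 °C animal 23, and in 30 °C offspring to 0.014, 0.074 and 0.012 without 30 °C animal 7, 23 °C animal 2 and 23 °C animal 23. Cpt1a turned to 0.027 in 18 °C offspring with the block. In 30 °C offspring it turned to -0.0024 with background rows, -0.041 with the clock score, and -0.022, -0.00094 and -0.044 without 30 °C animals 4 and 8 and 23 °C animal 1. Over all arrays left out in turn, Ppara ran from -0.21 to 0.079 in 18 °C and from -0.34 to 0.074 in 30 °C offspring against 23 °C, and Cpt1a from -0.044 to 0.16 in 30 °C offspring. The causes were not tested. Animal numbers shared by groups were not used as pairs in the main fit. Of 11 same-number pairs, 1 correlated above 0.1 (-0.15 to 0.11), and 0 of 16 arrays correlated best with their own number. The labels do not say what the numbers share, and correlations over all rows cannot settle it. Signs turned under no alternative in 21, 18, 17 and 27 of 37 members in the 4 comparisons. The slope of Acsl5 on the lipogenic score passed without group means (0.43, limma adjusted p = 0.019). Signal over background limits Acot8.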
